A study of Danio rerio with 16 samples.

Results

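The 4 libraries described here are the unexposed base of a study of perfluorobutanoic acid (PFBA), a short-chain perfluorinated carboxylic acid, in larvae of the zebrafish (Danio rerio). They were chosen by their treatment label, as the DMSO control group, and make up 4 of the 16 RNA-seq libraries in the series. All 4 came from fish 7 days old that had been kept in the DMSO solvent and frozen whole. No count from an exposed library is used below. The labels give no strain, sex or number of fish per library, so the libraries are replicates whose separateness beyond the label is not stated, and the spread between them may be partly technical. The deposited tables number the control columns 1, 3, 4 and 5, whereas the sample titles run from 1 to 4, so the columns are called control library 1, 3, 4 and 5 here and are not tied to single titles. Where 4 values follow each other, they stand in that library order.

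A zebrafish larva of this age is free-swimming and feeding, with working eyes, trunk muscle, heart, gut, liver and exocrine pancreas, and with most of its yolk used up. RNA from the whole animal is a mixture in which each organ contributes according to its mass and to the RNA its cells hold. In such bulk samples, fewer cells of a type and less RNA per cell cannot be told apart. Levels between genes are compared below as TPM, which divide the reads of a gene by its length and scale each library to a sum of 1000000. Fold ranges of single genes, and counts of genes highest or lowest in a library, rest on CPM. CPM are the reads per 1000000 of the library, scaled with TMM factors, which correct for differences in composition. The levels of 1 gene in each library are given as TPM or CPM. TPM carry no such correction, so the order of the libraries can differ between TPM and CPM.

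The gene tables held 11570175, 12901377, 13735339 and 11353254 reads in the 4 control libraries, and 22352 to 22975 genes had a read in a given library. Of 26183 genes listed, 25003 had a read in at least 1 control library and 15652 reached 1 TPM in all 4, the level called detected here. The listing pools the 3 deposited tables, so shares of listed genes depend on which genes those tables hold. Protein-coding genes held 96.8 to 98.4% of the reads. The libraries were not equally alike: libraries 1 and 3 were the closest pair, with a Pearson correlation of log2 CPM across genes of 0.978 and 581 genes at least 2-fold apart, and libraries 3 and 5 were the most distant, at 0.939 and 2357 genes. The first principal component held 62.2% of the variance and ran from libraries 3 and 1 over library 4 to library 5. Libraries 4 and 5 were the next closest pair, at 0.970 and 1000 genes. Library 4 was thus closer to library 5 than to library 1 or 3. Library 5 lay at the far end of the component. Most list counts of genes with a 2-fold range, and many fold ranges, are therefore given with and without it. Order counts and levels are given per library.

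The control transcriptome was led by respiratory-chain genes of the mitochondrial genome, ribosomal protein genes and fast-muscle genes. Transcript abundance was steeply uneven, since 22 genes held 25% of all TPM and 133 genes held 50%, whereas 4923 genes were needed to reach 90%. The 130 genes above 1000 TPM on average held 49.8% of the total, and the 8227 genes below 1 TPM together held 0.247%. Counted as reads, the 10 leading genes took 9.61, 11.2, 10.7 and 10.9% of the libraries, a mean of 10.6 ± 0.69% (SD, n = 4).

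The gene of highest mean TPM was mt-co2, which encodes subunit II of cytochrome c oxidase on the mitochondrial genome (MT:8130-8820 in GRCz11). Its levels were 26300, 27488, 37281 and 44285 TPM, a mean of 33838 ± 8528 TPM (SD, n = 4). The other catalytic subunits of that enzyme came next to it, with mean levels of 31217 ± 7224 TPM for mt-co3 and 30753 ± 7005 TPM for mt-co1. All 3 were highest in library 5. Among the 13 protein-coding genes of the mitochondrial genome, cytochrome c oxidase subunits accounted for 22.2% (mt-co2), 20.5% (mt-co3) and 20.3% (mt-co1) of the summed TPM. ATP synthase subunit mt-atp6 followed at 13309, 18081, 21029 and 20306 TPM, and cytochrome b, mt-cyb, at 7750, 10580, 11033 and 13240 TPM.

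The most abundant nuclear gene was pvalb1 (chr3:61193890-61205711), a parvalbumin that buffers calcium in fast muscle fibres. It reached 29479, 34817, 24921 and 15317 TPM. The sarcomeric actin actc1b (chr17:117024-125091) was second among nuclear genes, at 18228, 22261, 9795 and 4394 TPM. Its lowest library lay far under the others, a 5.57-fold range in CPM, or 2.3-fold without library 5. Ribosomal protein genes filled most of the next places and were much steadier: rplp0, the acidic stalk protein of the large subunit, had 8277, 8102, 7302 and 6739 TPM, and rps14, of the small subunit, had 7550, 7174, 7605 and 7672 TPM. The translation elongation factor gene eef1a1l1 was among the 10 leading genes by reads, at 11604, 12553, 8802 and 5548 CPM. Its TPM of 3128 ± 977 (SD, n = 4) rests on a listed length of 5863 bases, which merges the exons of all its annotated transcripts.

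**Figure D1:**
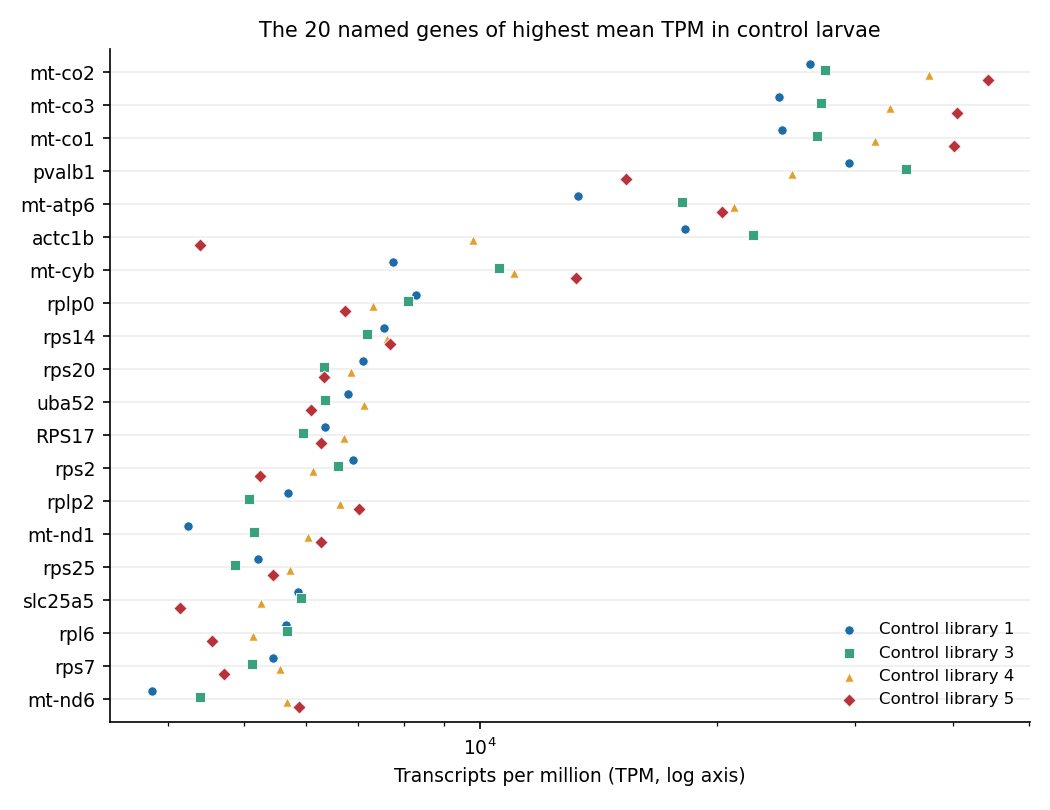
Levels of the 20 named genes with the highest mean TPM, 1 line per gene and 1 point per control library, on a log axis of TPM. Mitochondrial genes such as mt-co2 have library 5 at the right, the muscle genes pvalb1 and actc1b have it at the left, and the points of ribosomal genes such as rps14 lie close together.

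The plot of the 20 leading genes shows these 3 behaviours side by side. Beyond the named genes, an unnamed long intergenic RNA on chromosome 14, listed as CR383676.2, was also abundant, at 4661, 3550, 7691 and 11205 CPM, and it was highest in library 5. Both mitochondrial ribosomal RNAs are listed as well, although the RNA was selected for poly(A) tails, and together they took 0.43, 0.315, 0.547 and 0.881% of the reads. Detection differed along the genome: on chromosome 4, 570 of 1556 listed genes (36.6%) were detected, whereas chromosome 7, the next lowest of the numbered chromosomes, had 765 of 1372 (55.8%).

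Organ and pathway levels were read from 46 lists of marker genes, of which 1382 of 1496 symbols were matched to the tables. Cytosolic ribosomal proteins had the highest summed level, at 189800, 181900, 186980 and 171630 TPM, followed by the mitochondrial genome and fast skeletal muscle. Among organs other than muscle, photoreceptors came first, at 20378, 23535, 29614 and 22975 TPM, then the lens, at 11374, 11582, 15630 and 14472 TPM, and general neuronal genes, at 11342, 12457, 12379 and 12462 TPM. Skin and epidermis averaged 4869 ± 2468 TPM, liver 3355 ± 2027 TPM, exocrine pancreas 2479 ± 1221 TPM and intestine 1211 ± 424 TPM (SD, n = 4 each). At the lower end were heart muscle, with 213 ± 113 TPM, kidney, with 170 ± 5.69 TPM, and lymphoid genes, with 15.6 ± 1.78 TPM. Germ-line genes summed to 5.13 ± 0.483 TPM, and none of their 16 members was abundant enough to be tested. The sum for liver was above that for exocrine pancreas in each of the 4 libraries. The lens sum was above the neuronal sum in libraries 4 and 5, nearly equal to it in library 1 and below it in library 3. The lists hold unequal numbers of genes, such as 60 for the lens and 37 for neurons. The order of the sums therefore depends on which genes each list holds, and is not a ranking of organs.

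**Figure D2:**
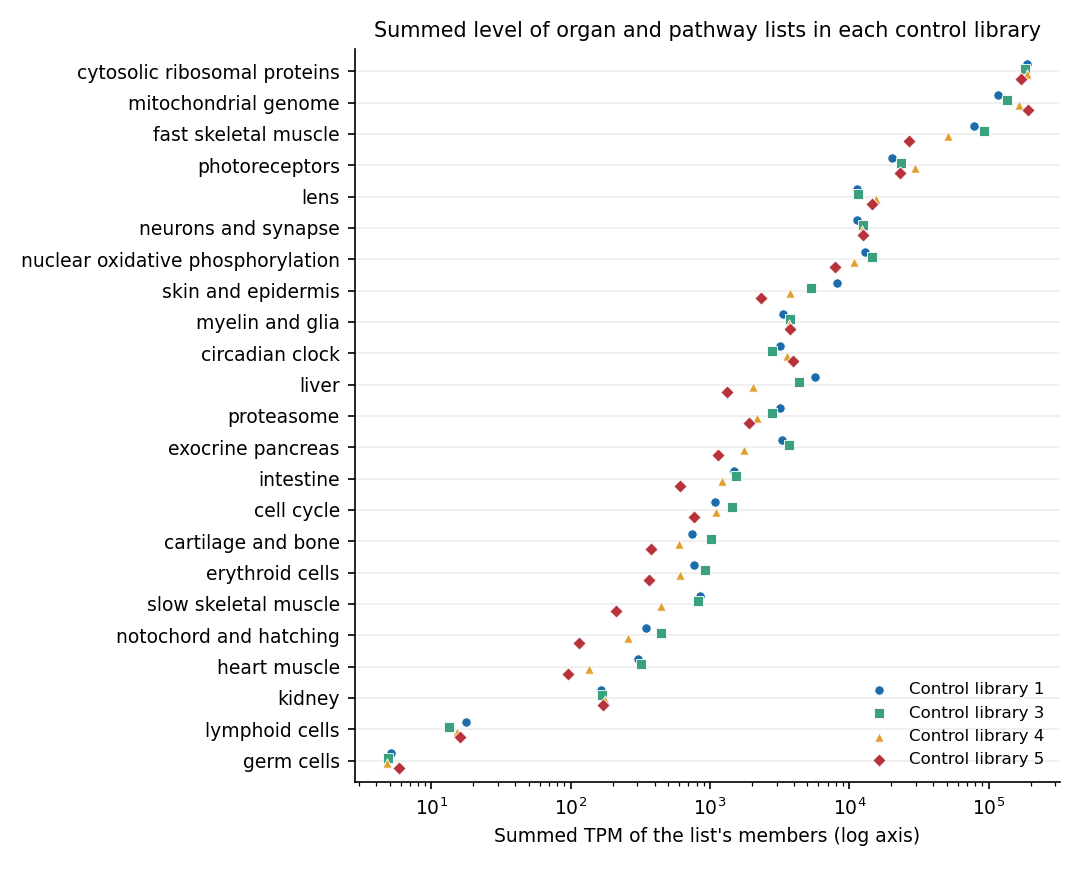
Summed TPM of 23 marker and pathway lists in each control library, on a log axis, ordered by mean level. Ribosomal, mitochondrial and fast-muscle lists stand at the top and germ-line genes at the bottom, and the points of the fast muscle, liver, pancreas and skin lists are spread more widely than those of neurons or kidney.

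The spread between libraries is described by a 2-fold range, which means that the highest library had at least 2 times the CPM of the lowest, with a prior count of 2 added. Over all 16253 genes that passed the filter on low counts, 4173 (25.7%) had such a range, 453 differed 4-fold and 63 differed 8-fold. The median gene had a 1.57-fold range and an SD of log2 CPM of 0.29. The 4-fold and 8-fold counts and these medians include library 5. Among libraries 1, 3 and 4 alone, 2236 of the same genes (13.8%) had a 2-fold range, and counts without library 5 below refer to these 3 libraries. Libraries 1, 3, 4 and 5 were the highest for 27.0, 24.4, 18.6 and 30.0% of all tested genes and the lowest for 20.9, 26.6, 19.5 and 33.0%. Among genes of at least 1 CPM on average, a 2-fold range was most frequent in the scarce ones, 51.7% of those between 1 and 3 CPM, least frequent between 30 and 100 CPM (9.58%), and more frequent again above 1000 CPM (18.7%).

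A test for genes that vary more than others of like abundance, edgeR's quasi-likelihood variance test with Benjamini-Hochberg adjustment, called 0 of 16253 genes, with 754 at an unadjusted p under 0.05. With 4 libraries it has few degrees of freedom, and a count of 0 does not show that the genes vary alike. voom with limma also called 0. DESeq2 marked 79 genes as dispersion outliers, and 20 of these were among the 25 named genes of largest SD. Both choices rest on the spread of the same counts, so the overlap adds no support. A chi-square test against counting error alone, added after the data had been seen, called 12574 genes (77.4%), so the spread of most genes was larger than the counting error of their reads. These p-values measure the spread between these libraries only.

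Fast skeletal muscle was the organ with the widest swing in absolute level, at 78142, 92431, 51335 and 26871 TPM. Of its 37 tested members, 31 (83.8%) had a 2-fold range and 34 were lowest in library 5. The shares over all tested genes were 25.7% and 33.0%. Without library 5, 19 of the 37 (51.4%) had a 2-fold range, beside 13.8% of all, and the summed level still differed 1.8-fold. Fast muscle moves the trunk and tail in swimming, and its list holds sarcomere, calcium-handling and energy genes. The myosin light chain mylz3 was at 6246, 8012, 3325 and 1158 TPM, and muscle creatine kinase, ckmb, which regenerates ATP from phosphocreatine, was at 5724, 5998, 2752 and 879 TPM. Libraries 1 and 3 were alike in both, and library 5 lay below library 4. The tropomyosin tpma, which covers the myosin sites on actin, differed 7.67-fold, and the troponin T gene tnnt3b 5.09-fold between the highest and the lowest library in CPM, and 2.46-fold and 2.09-fold without library 5. The myosin heavy chain myhz1.1 (the abundant of its 2 listed identifiers) varied far less, at 1851, 2062, 1589 and 1424 TPM, a 1.59-fold range.

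The gene with the largest spread of all named genes of at least 5 CPM also came from this list. The actin gene acta1b was at 258, 477, 102 and 12.2 CPM, a 38.6-fold range, or 4.66-fold without library 5. Its relatives also had libraries 1 and 3 above library 4 and library 4 above library 5: acta1a was at 120, 164, 48.2 and 14.3 CPM, and actc1c at 140, 134, 47.7 and 9.88 CPM. Sarcomeric actins are near-identical in sequence, so reads could be split between them, and the single values are uncertain. The essential light chain gene myl1 was at 482, 611, 179 and 36.6 CPM. The calcium pump gene atp2a1l, which returns calcium to the sarcoplasmic reticulum, was at 2073, 2311, 770 and 204 CPM, an 11.3-fold range, or 3.0-fold without library 5.

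Slow muscle and heart were listed at far lower levels than fast muscle and were also lower in libraries 4 and 5. Slow skeletal muscle summed to 845, 819, 442 and 211 TPM. Of its 11 tested members, 7 (63.6%) had a 2-fold range, beside 25.7% of all tested genes. Without library 5 it was 2 (18.2%), near the 13.8% of all tested genes. The slow myosin heavy chain smyhc1 was at 28.4, 27.3, 14.5 and 4.07 TPM. The heart list summed to 302, 317, 135 and 95.7 TPM. Here 10 of 13 tested members (76.9%) had a 2-fold range, and 9 (69.2%) also without library 5. The cardiac regulatory light chain gene myl7 was at 23.3, 18.5, 5.76 and 9.95 TPM, so that here library 4 and not library 5 was lowest. The heart form of myosin-binding protein C, mybpc3, was at 14.2, 11.9, 11.4 and 11.6 TPM, a 1.25-fold range. Most of the heart list's sum came from actc1a, listed under 2 identifiers that averaged 65.0 and 54.2 TPM, and cardiac and skeletal actins share much of their sequence.

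Liver had the highest share of tested members at a 2-fold range among the 46 lists, 27 of 29 (93.1%), and a summed level of 5698, 4353, 2043 and 1326 TPM. Without library 5 the count was 21 of 29 (72.4%), and the summed level differed 2.79-fold, with library 4 well below libraries 1 and 3. The shares over all tested genes were 25.7% with and 13.8% without library 5. The liver makes most plasma proteins and lipoproteins. Its fatty acid binding protein fabp10a, a classical hepatocyte marker, was at 2375, 1670, 808 and 384 TPM. The apolipoprotein apoa2 was at 1137, 921, 278 and 146 TPM, and the protease inhibitor serpina1 was at 225, 151, 53.5 and 28.3 TPM. In all 3, library 5 was lowest, as it was for 25 of the 29 liver genes. Transferrin (tfa) and the fibrinogen chain fga had ranges of 6.94-fold and 3.58-fold in CPM, or 3.5-fold and 2.44-fold without library 5. The retinol-binding protein family gene rbp4l had the opposite order, at 173, 140, 269 and 308 TPM.

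In the exocrine pancreas list, 21 of 23 tested members (91.3%) had a 2-fold range, a share near that of liver. Without library 5 it was 11 of 23 (47.8%), below the 72.4% of liver, beside 13.8% of all tested genes. The median SD of log2 CPM was 0.641, beside 0.837 in liver. The list summed to 3307, 3701, 1762 and 1146 TPM. Trypsin (prss1) led with 1291, 1393, 684 and 440 TPM, followed by a second trypsin, prss59.2, and an elastase, ela3l, which averaged 358 ± 186 and 343 ± 177 TPM (SD, n = 4). The carboxypeptidase cpa5 had the largest SD of the list, at 173, 235, 74.1 and 36.1 TPM. Amylase (amy2a) and carboxyl ester lipase (cel.1) differed less, 2.17-fold each, or 1.54-fold and 1.6-fold without library 5.

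In the intestine 18 of 25 tested members (72.0%) had a 2-fold range, and 12 (48.0%) without library 5. The shares over all tested genes were 25.7% and 13.8%. The intestinal genes did not share 1 pattern. The ileal bile acid binding protein fabp6 was at 528, 581, 665 and 178 TPM, lowest in library 5 alone. Apolipoprotein apoa1a was at 333, 338, 220 and 98.6 TPM. The chitinase chia.2 was at 140, 133, 47.5 and 62.5 TPM, lowest in library 4. The lysosomal protease ctsba was nearly level, at 97.1, 81.3, 89.3 and 97.1 TPM.

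Skin genes were, in sum, highest in library 1 and lowest in library 5. The skin and epidermis list summed to 8091, 5315, 3731 and 2340 TPM. Of its 33 tested members, 21 (63.6%) had a 2-fold range, and 13 (39.4%) without library 5, beside 25.7% and 13.8% of all tested genes. The keratin krt91 was at 2635, 1428, 751 and 420 TPM, and the enveloping-layer keratin krt4 at 494, 474, 383 and 211 TPM. The basal epidermal keratin krtt1c19e had the second largest SD of the named genes, at 452, 384, 143 and 16.8 CPM, a 26.6-fold range, or 3.17-fold without library 5. The basement-membrane attachment collagen col17a1a, also a basal-cell gene, was at 29.8, 17, 14.2 and 2.06 CPM. For keratins as for actins, similar paralogs could share reads.

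Matrix and skeletal genes were highest in library 3. Cartilage and bone summed to 743, 1009, 595 and 377 TPM, and 20 of 23 tested members were highest in library 3, beside 24.4% of all tested genes. Of the 23, 16 (69.6%) had a 2-fold range, and 10 (43.5%) without library 5, beside 25.7% and 13.8% of all tested genes. The fibrillar collagen col1a2 was at 89.5, 114, 53.8 and 27.8 TPM, and the cartilage collagen col9a1b at 35.2, 66.0, 18.7 and 8.83 TPM. A second cartilage collagen, col2a1b, was level, at 55.5, 53.0, 58.3 and 53.9 TPM. The cell cycle list was also highest in library 3: 33 of 38 tested members were highest there and 33 were lowest in library 5. A 2-fold range was found for 26 of the 38 (68.4%), beside 25.7% of all tested genes. Without library 5 it was 4 of the 38 (10.5%), near the 13.8% of all tested genes, which were not matched for abundance. The replication clamp pcna was at 141, 217, 166 and 60.5 TPM, and the condensin gene smc2 at 8.04, 16.7, 4.98 and 1.12 CPM, whereas the helicase subunit mcm7 stayed at 112, 109, 98.8 and 107 TPM.

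The photoreceptor and lens lists were among the largest organ sums, and few photoreceptor genes reached a 2-fold range. Of 42 tested photoreceptor genes, 3 (7.14%) had a 2-fold range, 2 without library 5. The share was 25.7% over all tested genes and 9.58% over those between 30 and 100 CPM. The median SD of log2 CPM of the photoreceptor genes was 0.308, beside 0.295 over all tested genes, so their typical spread was not narrow. Of the 42, 32 were highest in library 4, beside 18.6% of all tested genes. The ultraviolet cone opsin opn1sw1 (chr4:13577665-13580348) was at 3869, 4787, 5525 and 3233 TPM, and the rod opsin rho at 3178, 3712, 4335 and 3008 TPM. The inhibitory subunit of cone phosphodiesterase, pde6ha, was higher still in libraries 4 and 5, at 3665, 3422, 5995 and 6438 TPM. Of all visual opsin TPM, opn1sw1 held 41.7%, rho 34.5%, the green opsin opn1mw1 12.8% and the red opsin opn1lw2 9.52%. The blue opsin opn1sw2 held 0.957% and the second green opsin opn1mw2 0.581%, and opn1mw4 had no read in the 4 libraries. The red opsin opn1lw2 had the widest range of the abundant opsins, at 907, 1307, 1209 and 600 TPM.

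The lens list holds crystallins and other lens genes. Of its 49 tested genes, 36 were highest in library 4. A 2-fold range was found for 14 (28.6%), near the 25.7% of all tested genes, and for 11 (22.4%) without library 5, beside 13.8%. The retinal pigment epithelium list summed to 1521, 1261, 1506 and 1336 TPM, and 4 of its 11 tested genes (36.4%) had a 2-fold range, 3 without library 5. Gamma crystallins held 68.4 ± 2.77% of crystallin TPM, beta crystallins 31.4 ± 2.75% and alpha crystallins 0.208 ± 0.0464% (SD, n = 4). The leading single gene was crybb1, at 1451, 1744, 2119 and 1496 TPM, followed by crygm2d1 and crygm2d8, which averaged 1235 ± 281 and 1029 ± 171 TPM. Alpha crystallin cryaa was at 27.21, 27.16, 23.7 and 25.3 TPM. The gamma crystallin genes of fish are a large family of close copies, and values for single copies are uncertain. One of them, crygm5, was lowest in library 1, at 2.2, 4.81, 12.1 and 17.3 TPM.

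Neuronal genes held nearly the same TPM sum in all 4 libraries. The summed level of neurons and synapse differed 1.099-fold between the highest and the lowest library, or 1.198-fold with DESeq2 size factors. Of 37 tested members, 7 had a 2-fold range (18.9%), and 1 of 37 (2.7%) without library 5. The shares over all tested genes, not matched for abundance, were 25.7% and 13.8%. The microtubule regulator stmn1b led, at 1621, 1682, 2099 and 2410 TPM, and the synucleins sncb and sncgb averaged 1617 ± 106 and 1182 ± 17.6 TPM (SD, n = 4). The synaptic fusion protein gene snap25a was at 738, 786, 833 and 900 TPM. Of the enzymes that make the inhibitory transmitter GABA, gad1b was at 215, 206, 261 and 304 TPM and gad2 at 175, 167, 172 and 195 TPM. The vesicular glutamate transporter slc17a6a had the largest SD among genes of neurotransmitter systems, at 22.3, 18.1, 5.28 and 4.70 TPM. A tubulin of young neurons, tubb5, had the largest SD of the neuronal list, at 153, 257, 191 and 101 TPM.

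Glial genes summed to 3335 to 3760 TPM. Of 26 tested members, 8 (30.8%) had a 2-fold range, and 4 (15.4%) without library 5, near the 25.7% and 13.8% of all tested genes. Glutamine synthetase (glula), which clears glutamate in astroglia, was at 992, 972, 1193 and 1502 TPM, and the glutamate transporter slc1a2b at 553, 614, 540 and 565 TPM. The intermediate filament gene gfap was at 218, 241, 190 and 128 TPM, a 2.07-fold range, or 1.29-fold without library 5. Myelin basic protein gene mbpb was among the 10 steadiest genes of at least 50 CPM. Hypothalamic and pituitary transcripts included the neuropeptide genes adcyap1b, at 127 ± 4.74 TPM, vip, at 86.9 ± 26.3 TPM, and tac1, at 71.2 ± 11.9 TPM (SD, n = 4).

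Blood was represented by embryonic and larval globins, which held 99.97% of globin TPM. The alpha globin hbae3 was at 233, 255, 152 and 87.1 TPM and the beta globin hbbe1.1 at 211, 270, 121 and 71.2 TPM, with library 5 lowest in both. The adult globin genes hbaa1 and hbba1 had 2 reads each over all 4 libraries. Endothelial genes were low in sum, from 214 to 249 TPM, led by the aquaporin aqp1a.1 at 93.7 ± 13.4 TPM (SD, n = 4). Of 22 tested endothelial genes, 9 (40.9%) had a 2-fold range, beside 25.7% of all tested genes. Without library 5 it was 3 (13.6%), beside 13.8%.

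Several lists held genes that are standard markers yet had almost no reads. The housekeeping gene hprt1, which every cell uses for purine salvage, had 1 read over the 4 libraries, the keratin krt5 and the erythroid factor gata1a had 0, and insulin (ins) had 4. The muscle light chain mylpfa had 12, against 2459 ± 1418 TPM (SD, n = 4) for its copy mylpfb. The related gene hprt1l, listed apart from hprt1, averaged 70.9 ± 23.2 TPM (SD, n = 4). Such values near 0 do not show that a gene was silent in these larvae, and the cause was not tested.

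Energy genes of the mitochondrial genome were in sum highest in library 5 and those of the nucleus lowest there, while both were lower in library 1 than in library 3. Genes of the mitochondrial genome took 6.18, 7.16, 8.80 and 10.25% of reads, and 8 of the 13 coding genes were highest in library 5, although none of the 13 reached a 2-fold range. Nuclear genes for oxidative phosphorylation summed to 13008, 14629, 10849 and 7912 TPM, and 44 of 50 were lowest in library 5. Of the 50, 24 (48.0%) had a 2-fold range, beside 25.7% of all tested genes. Without library 5 it was 4 (8.0%), beside 13.8% of all tested genes, which were not matched for abundance. The ATP synthase beta subunit gene atp5f1b was at 1233, 1427, 932 and 639 TPM. The ADP/ATP carrier slc25a4 was at 76.3, 53.6, 44.7 and 3.37 TPM, a 21.6-fold range in CPM that was 1.59-fold without library 5, while the more abundant carrier slc25a5 was at 5870, 5917, 5268 and 4152 TPM. In glycolysis, 18 of 37 tested genes (48.6%) had a 2-fold range, and 11 (29.7%) without library 5, beside the 25.7% and 13.8% given above. The muscle aldolase aldoab was at 341, 459, 176 and 35.7 CPM, a 12.8-fold range, or 2.61-fold without library 5, and the brain aldolase aldocb at 1105, 1313, 1428 and 1278 CPM. Proteasome subunits, which form the core and cap of the main protein-degrading complex, summed to 3174, 2799, 2186 and 1912 TPM. Of the 34 proteasome genes, 30 were lowest in library 5 and 12 (35.3%) had a 2-fold range. Without library 5 it was 3 (8.82%), beside the same 13.8%.

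**Figure D3:**
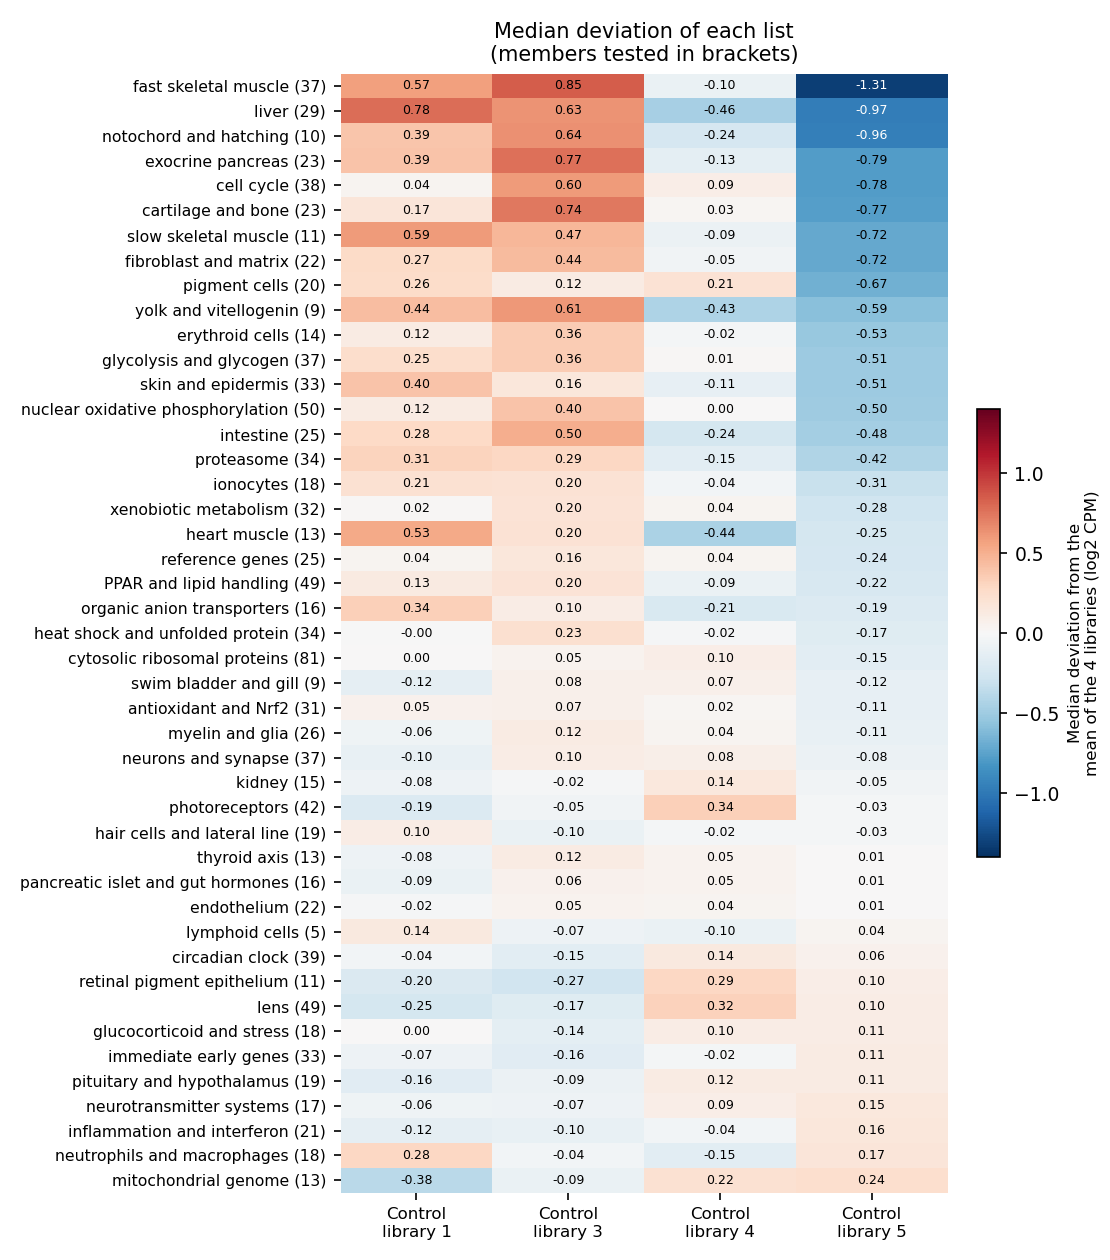
Median deviation of each list's tested members from their mean over the 4 control libraries, in log2 CPM, with the number of tested members in brackets. Blue cells are below the mean and red cells above it; fast skeletal muscle has -1.31 in library 5 and 0.85 in library 3, and mitochondrial genes have 0.24 in library 5 and -0.38 in library 1.

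As the map of median deviations shows, library 5 was low in most organ lists of the trunk, gut and skin. It was near or above the mean in most neural, eye, clock and mitochondrial lists. The lists did not split cleanly by body part. Library 5 was also at 0.17 in neutrophils and macrophages, 0.16 in inflammation, 0.11 in immediate early genes and -0.05 in kidney. The glial list was at -0.11. A count was made after the values were seen of genes with libraries 1 and 3 both above 4 and 4 above 5. Over all tested genes 3004 (18.5%) followed that order and 2920 (18.0%) the reverse, with library 5 highest. In fast muscle 33 of 37 tested genes followed it, in the proteasome 30 of 34, in liver 23 of 29, in exocrine pancreas 18 of 23 and in nuclear oxidative phosphorylation 34 of 50. The reverse order held for 8 of 13 mitochondrial genes, 9 of 17 genes of neurotransmitter systems, 11 of 39 clock genes and 11 of 33 immediate early genes. Among gene classes, 20 of 61 antisense RNAs (32.8%) and 55 of 223 long intergenic RNAs (24.7%) had the reverse order, beside 17.7% of protein-coding genes. No source used here says whether the counting used strand, so that reads of an antisense RNA and of its partner cannot be told apart. Abundant genes with the reverse order, picked for it, included the splicing factor subunit sf3b1, at 1378, 853, 1788 and 2806 CPM, the splicing kinase clk4a, at 811, 535, 1057 and 1673 CPM, and the glutamate receptor subunit grin1b, at 887, 566, 1028 and 1801 CPM.

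Several library measures moved with this order and their part in it was not tested. Mitochondrial ribosomal RNA, given above, was highest in library 5, and protein-coding genes held 98.1, 98.4, 97.6 and 96.8% of reads. Genes of under 1694 bases, the shortest length class, had a median deviation of -0.09 in library 5 and 0.07 in library 3 on the log2 scale, and genes of over 4263 bases 0.05 in library 5 and -0.06 in library 3. Of the 46 lists, 13 had summed levels at least 2-fold apart between libraries, and 5 had them without library 5.

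The 25 named genes of largest SD, taken among those with a mean of at least 5 CPM, were picked on these values, so they carry no test, and 4 of them stand in a muscle list. Library 5 was lowest in 22 of them, and in each of those 22 genes both library 1 and library 3 were above library 4. Beside the actins, keratins and light chains, they included the muscle pyruvate kinase pkmb, the glycogen phosphorylase pygma, the creatine-synthesis enzyme gatm, the Z-disc genes myot and myoz1a, and the acetylcholine receptor subunit chrne. The 2 genes that were highest in library 5 were irg1l, whose mouse counterpart makes the antimicrobial metabolite itaconate, at 2.48, 3.12, 2.08 and 43.0 CPM, and nosip, at 1.28, 2.00, 2.16 and 15.8 CPM. Without library 5, the 19.2-fold range of irg1l was 1.46-fold, and that of nosip was 1.6-fold. The zinc finger gene znf593 had a different split, at 19.2, 1.84, 16.2 and 2.06 CPM, with libraries 1 and 4 high.

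**Figure D4:**
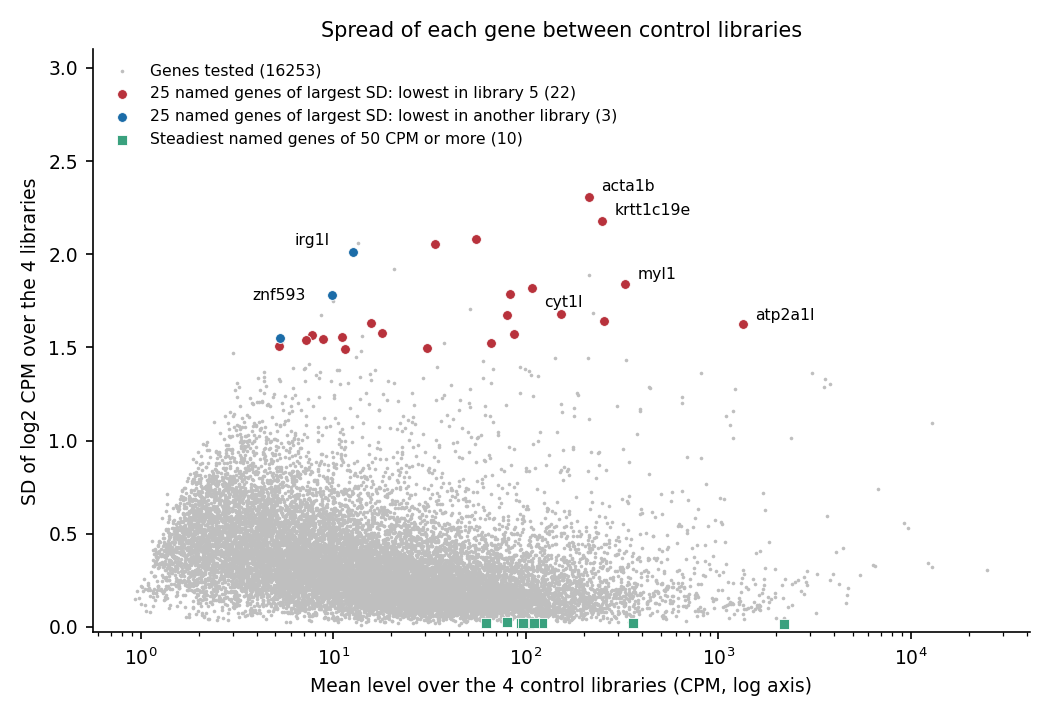
SD of log2 CPM over the 4 control libraries against mean CPM (log axis) for the 16253 tested genes in grey, with the 25 named genes of largest SD and the 10 steadiest named genes marked. The most variable gene, acta1b, lies at an SD of 2.31, and the steadiest genes lie at the lower edge.

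At the other end of the plot of spread against abundance, the cold-inducible RNA-binding protein gene cirbpb was the steadiest gene of at least 50 CPM. It was at 2209, 2166, 2188 and 2214 CPM, an SD of log2 CPM of 0.01. The tumour suppressor apc, the ubiquitin ligase scaffold cul3a, the chromatin reader ing3 and the small GTPase rnd3a also kept within a 1.03-fold range. These genes were selected for low spread, so their closeness is a description with no test.

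Genes often used to normalize expression were not equally stable in control larvae. Of 25 tested ones, 7 (28.0%) had a 2-fold range, near the 25.7% of all tested genes. Without library 5 it was 1 of 25 (4.0%), beside 13.8% of all tested genes. Their median SD of log2 CPM was 0.201, below the 0.295 of all tested genes. It lay within the 0.187 to 0.222 of the abundance classes above 30 CPM. They were thus not shown to be steadier than genes of like abundance. The glycolytic enzyme gapdh was the most variable, at 1755, 1614, 874 and 345 CPM, a 5.08-fold range that was 2.01-fold without library 5, whereas its paralog gapdhs differed 1.58-fold. The tubulins tuba1a and tuba1b differed 2.5-fold and 2.96-fold, and the elongation factor eef1a1l1 2.26-fold. Without library 5 these ranges were 1.795-fold, 1.71-fold and 1.43-fold. The cytoplasmic actin actb2 was at 2865, 3370, 2923 and 2258 CPM, a 1.49-fold range. Steadier were the ribosomal protein genes rpl7 and rps18, with ranges of 1.18-fold and 1.22-fold, the ubiquitin-conjugating enzyme ube2a (1.18-fold), the membrane protein tmem50a (1.26-fold) and the adaptor ywhaz (1.25-fold). The TATA-binding protein gene tbp was at 15.4, 21.0, 21.8 and 25.8 CPM.

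**Figure D5:**
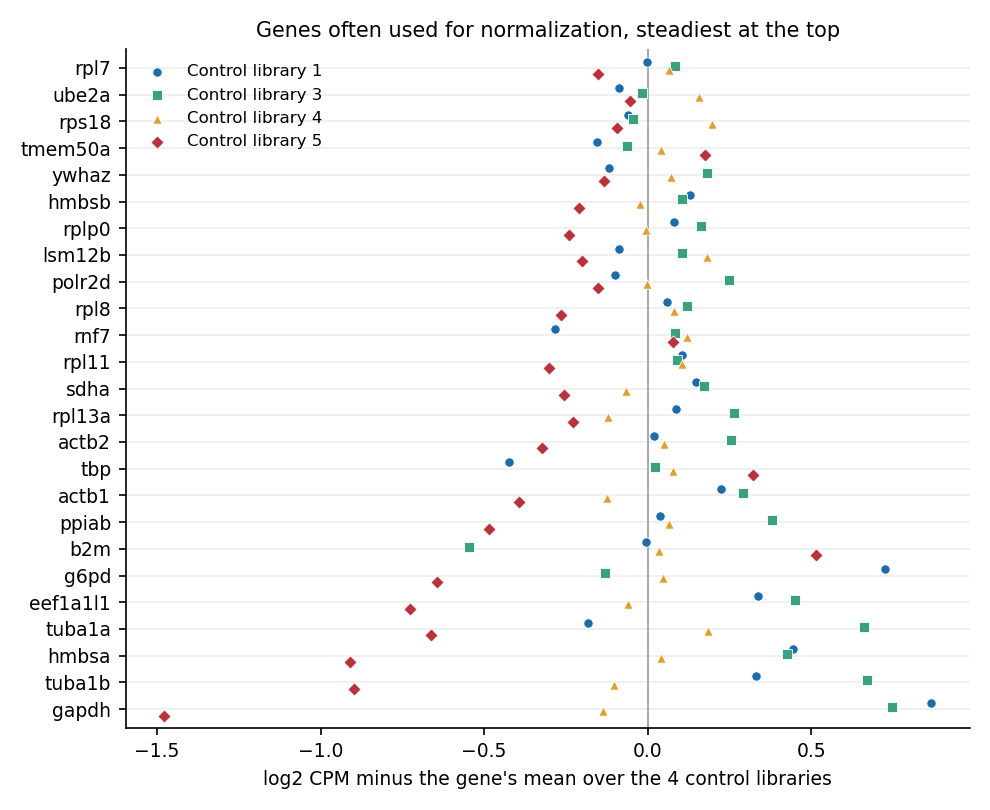
Log2 CPM minus the gene's own mean for the 25 tested genes often used for normalization, 1 point per control library, steadiest gene at the top. The points of rpl7 and ube2a lie within a 1.18-fold range, and those of gapdh span 5.08-fold, with library 5 farthest to the left.

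Transcription factors were detected at about the share of all listed genes. Of 2177 genes with a transcription factor family in the tables, 1364 were detected, beside 15652 of all 26183 listed genes. Zinc finger genes of the C2H2 class were the largest family, with 516 of 975 detected. The cold-shock domain protein gene ybx1 was the most abundant, at 1639, 1778, 1313 and 1010 TPM, followed by the chromatin protein gene hmgb3a, at 927 ± 72.4 TPM. The forebrain factor foxg1b was at 354, 331, 528 and 603 TPM, and neurod1 and crx, both active in the retina, averaged 313 ± 45.7 and 179 ± 40.7 TPM (SD, n = 4). The stress factor atf4a was level, at 416, 444, 416 and 464 TPM.

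Several clock genes were abundant, and 4 of 39 tested members (10.26%) had a 2-fold range, 1 of them without library 5. The share was 25.7% over all tested genes, but 9.58% between 30 and 100 CPM and 11.9% between 100 and 300 CPM. The median SD of log2 CPM of the clock genes was 0.236, beside 0.201 and 0.187 in those 2 classes. They were thus not shown to be more even than genes of like abundance. The circadian clock is a feedback loop in which activators such as Bmal1 and Clock drive their own repressors, and in fish it runs in most tissues and responds to light. The repressor bhlhe40 was the leading clock gene, at 579, 521, 700 and 879 TPM, followed by the nuclear receptors nr1d1, at 409, 396, 503 and 560 TPM, and nr1d2b, at 324, 264, 356 and 435 TPM. The period genes per1b and per3 averaged 107 ± 16.9 and 96.1 ± 19.1 TPM (SD, n = 4). On the activator side, arntl1a, the gene for Bmal1, was at 25.2, 26.3, 26.2 and 38.2 TPM and clockb at 16.6, 14.1, 11.6 and 11.7 TPM. The time of day of sampling is not given in the labels. Immediate early genes respond within minutes to handling or light. Of 33 tested members, 6 (18.2%) had a 2-fold range, and 2 (6.06%) without library 5, beside 25.7% and 13.8% of all tested genes. The gene ier2b was at 153, 138, 208 and 287 TPM.

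Genes of the pathways that perfluorinated acids are usually studied for were present at baseline. PPARs are nuclear receptors for fatty acids that switch on lipid transport and oxidation. Of PPAR TPM, pparaa held 46.6%, ppardb 41.2%, pparab 8.73%, pparda 2.31% and pparg 1.19%. The receptor pparaa was at 33.5, 22.6, 22.8 and 30.1 TPM and ppardb at 22.1, 19.9, 23.6 and 29.6 TPM, so ppardb was higher in library 4. In CPM, ppardb was the higher on average, at 59.8 beside 27.6. Their order in TPM thus rests on the listed lengths of 4833 bases for ppardb and 1953 bases for pparaa. Of 49 tested genes of PPAR signalling and lipid handling, 17 (34.7%) had a 2-fold range, and 10 (20.4%) without library 5. The shares over all tested genes were 25.7% and 13.8%. Fatty acid binding proteins led in level, from fabp10a of the liver, given above, and the radial glial fabp7a, at 685, 1009, 827 and 616 TPM, to fabp6 of the gut. A further member, fabp1b.1, was at 278, 251, 127 and 58.5 TPM. The mitochondrial oxidation gene acadm was level, at 119, 124, 128 and 136 TPM, and the carnitine transferase cpt1ab was at 6.31, 5.04, 6.20 and 13.9 TPM. Among organic anion transporters, which carry such acids across membranes in other species, 16 of 27 matched genes were abundant enough to test. A 2-fold range was found for 6 of the 16 (37.5%), and for 5 (31.2%) without library 5, beside the same 25.7% and 13.8%. The leading ones were slc22a2, an organic cation carrier kept in the list, at 16.1 ± 2.92 TPM, and slco1d1, at 13.0 ± 2.83 TPM (SD, n = 4), and the bile salt exporter abcb11b was at 5.26, 3.16, 1.63 and 1.1 TPM.

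Thyroid and stress genes completed the hormonal pathways. The thyroid hormone receptor thrb was at 72.7, 47.5, 85.4 and 116 TPM, far above thraa and thrab, which averaged 6.77 ± 0.887 and 6.6 ± 2.39 TPM. The hormone carrier transthyretin (ttr) was at 62.8, 47.9, 16.2 and 11.3 TPM, in the order of the liver genes. Of glucocorticoid targets, fkbp5 was at 82.1, 84.6, 151 and 107 TPM and tsc22d3 at 60.3, 107, 151 and 147 TPM. The chaperone hsp90ab1 led the heat-shock list, at 1625, 1637, 1335 and 1244 TPM. Of detoxifying enzymes, the cytochrome cyp2ad3 averaged 235 ± 59.5 TPM, the glutathione transferase gstp1 160 ± 32.4 TPM and the cytochrome cyp3a65 82.8 ± 28.6 TPM (SD, n = 4). The iron store gene fth1a led the antioxidant list and was nearly constant, at 1469, 1445, 1457 and 1447 TPM.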

How the data were processed

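Whole larvae were extracted with TRIzol, and poly(A) RNA was made into directional libraries and sequenced on a NovaSeq instrument, per the labels' protocols. Tools named in the submitters' processing notes were fastp, HISAT2, featureCounts and DESeq2, with the genome build GRCz11 and no versions. Whether strand was used in counting, and which annotation was counted, is not given in the sources used here. The authors deposited 3 tables with raw counts per gene, in which the control columns hold identical counts, and these were taken once per gene. Other deposited columns were not used. All values were computed here from the counts: CPM with TMM factors (0.973 to 1.03; edgeR 4.0.16, R 4.3.3), log2 CPM with a prior count of 2, and TPM from the counts and the tables' gene lengths. Genes were filtered with edgeR's filterByExpr. TPM overstates very short genes and understates genes whose merged length exceeds their main transcript. Depth was 11353254 to 13735339 counts per library.

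Library spread was tested with an intercept-only quasi-likelihood fit (edgeR), with voom and limma 3.58.1 and DESeq2 1.42.0 as alternatives; the script was tested on simulated data. Other alternatives changed the scaling, filters, prior count and denominator or left out each library. Genes are named as the 20 highest in TPM and 10 highest in CPM, the 3 most abundant and the most variable member of each list, the 25 of largest SD at 5 CPM or more (taken because none was called variable), the 5 per library that deviate most, the 10 steadiest at 50 CPM or more, and members of the reference, clock, lipid and transporter lists; others were chosen after their values were seen. The members and lists were chosen with earlier results of these data known. Counts of exposed libraries are not used here. Of the listed symbols, 1370 matched the tables' gene names and 12 a reference symbol. Some genes stand in more than 1 list. No exposed and control samples are compared, and no per-sample control column was left unassigned to the control group.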

Additional observations from a re-analysis of the deposited data

Results flagged for a closer look

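The 206 sets checked held 4 values each, 1 per control library, for named genes, list sums and library measures such as total reads. Each was searched for a library whose gap to its neighbour was large against the whole range (Dixon's criterion). Of these, 8 sets stood apart. Chance alone marks about 1 in 20 of sets that were not chosen for their values, and 8 of 206 is not above that rate. The genes irg1l, nosip and crygm2d12 were named for a large SD or a large deviation of 1 library, so for them the criterion restates that choice, and some others were named after their values were seen. Library 5 was the highest in 4 of them. The gene irg1l, whose mouse counterpart makes itaconate, was at 34.4 TPM there and at 1.54 to 2.27 TPM in the other libraries. The gene nosip was at 14.1 TPM, against 1.13 to 1.77 TPM elsewhere. The clock activator arntl1a was at 38.2 TPM, against 25.2 to 26.3 TPM, and the carnitine transferase cpt1ab at 13.9 TPM, against 5.04 to 6.31 TPM. Library 5 was the lowest for the beta globin hbbe1.3, at 55.2 TPM, against 106 to 114 TPM. In library 4 the gamma crystallin crygm2d12 reached 69.1 TPM, against 11.3 to 16.9 TPM. Library 1 was the highest for the hormone-responsive factor klf9, at 125 TPM, against 87.1 to 91.5 TPM, and the lowest for the neurons and synapse list, at 11340 summed TPM, against 12380 to 12460 TPM.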

How the results depend on the processing

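Asking for 5 TPM in place of 1 TPM left 10306 genes detected. The 10 leading genes held 18.6% of TPM in place of reads and 7.17% of reads without the mitochondrial genome. Variable genes numbered 12 with no filter on low counts, 79 as DESeq2 dispersion outliers and 12574 in the chi-square test against counting error. Genes with a 2-fold range numbered 10859 (43.4%) with no filter and 2290 (18.3%) at a mean of 5 CPM or more. Leaving out 1 library at a time gave 15797 to 16143 genes detected, a leading share of 10.4 to 10.9%, 0 to 0 variable genes, 2494 to 3425 genes with a 2-fold range and 5 to 13 lists with summed levels 2-fold apart, the lowest of the last 2 without library 5 (genes filtered and scaled anew, so the count differs from that among libraries 1, 3 and 4 given above). DESeq2 size factors and library-size scaling moved none of these by over 1.5 times. Of 154 named genes, 28 lost their 2-fold range without library 5, beside 2 to 9 when 1 of the others was left out. No paired analysis was possible because 1 group is described and the columns carry other numbers than the titles, so there is no replicate block. With 4 libraries, and scarce genes near their counting error, small differences were not detectable.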
